A study of Oryza sativa with 36 samples.

Results

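The genes described here are rice ribosomal protein genes, followed through an infestation by the brown planthopper (BPH; *Nilaparvata lugens*), an insect that sucks phloem sap. They were picked by name: a gene entered when its symbol or a synonym in the array's annotation was RPS, RPL or RPP followed by a number and optional letters, it had a probe set of its own and it lay in the nuclear genome, with ERG1/RPP17 left out by name. Of the 17905 genes with a probe set of their own, 24 met this rule, on 40 probe sets. Of these, 19 carry names of cytosolic ribosomal proteins, 10 of the small (40S) subunit and 9 of the large (60S) subunit. The other 5 matched by name alone and are given apart. RPL18/CL18 and RPL27/CL27 have synonyms of the chloroplast ribosome, the compartment of rpl5 was not settled, SDH2-1/rps14 is a succinate dehydrogenase gene that also carries a mitochondrial rps14, and ERG3/RPP16 is named for a phloem protein. The annotation gives names without product descriptions, so the subunit of the 19 genes rests on their names. Among them, RPS20 is written rps20 in the annotation, in lower case like rpl5, and its compartment rests on the name alone.

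The cytosolic ribosome makes most of the proteins of a plant cell, and each of its subunits is an RNA core carrying many small proteins. Plants encode most of these proteins by several near-identical genes, whose transcripts are among the most abundant of growing tissue. The set is known for being transcribed together, more in dividing and expanding cells and less in cells under stress, and single members serve as reference genes in PCR work.

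The shoots came from 2-week-old seedlings of 2 *indica* varieties, the BPH-resistant 'Rathu Heenati' (RH) and the susceptible 'Taichung Native 1' (TN1). Each variety was left to grow naturally (C), pricked with a needle 15 times per plant (N) or infested with about 100 BPH nymphs per pot, or 10 per seedling (P), and collected at 6 or 24 h. The 12 groups, written as variety, hour and treatment (T24P is infested TN1 at 24 h, R24C untreated RH at 24 h), held 3 biological replicates each, and a replicate was the 10 pooled shoots of a pot, measured on 1 array. RH and TN1 are whole varieties that differ across the genome, so a difference between them belongs to no single gene.

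The 36 arrays had median intensities of 35.8 to 39.8, and arrays of a group correlated at 0.988 or more over all probe sets. The shoot markers CAB2R, a chlorophyll a/b-binding protein gene, and rca, the gene of Rubisco activase, were bright in every group, while RBCS1 of the same list was dim, at 8.58 to 13.9. In the untreated and infested arrays of 24 h the root marker Lsi2 lay between 10.7 and 14.9 and the root marker Lsi1 between 138 and 229. In the rest of the text, a gene rose or fell when its adjusted p was below 0.05 in limma with Benjamini-Hochberg adjustment over all 57194 probe sets, and a gene with several probe sets is represented by the brightest.

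Outside T24P and R24P the 19 cytosolic genes varied from array to array to a similar degree as genes of like or greater brightness. Their mean intensities over the 36 arrays lay between 2458 and 10109. The coefficient of variation across the 30 arrays outside T24P and R24P had a median of 8.40% over the 19 genes. Over the 1374 genes at least as bright as the dimmest of them the median was 9.97%. For RPL7A-1 the coefficient was 19.7%. RPS20, RPS7, RPS4, RPS15, RPL3, RPL30 and RPS26, at 10.3% to 12.8%, were above 9.97% as well. Over all 36 arrays these medians were 21.3% and 15.2%. T24P was the group with the lowest mean for 19 of the 19 genes.

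**Figure D1:**
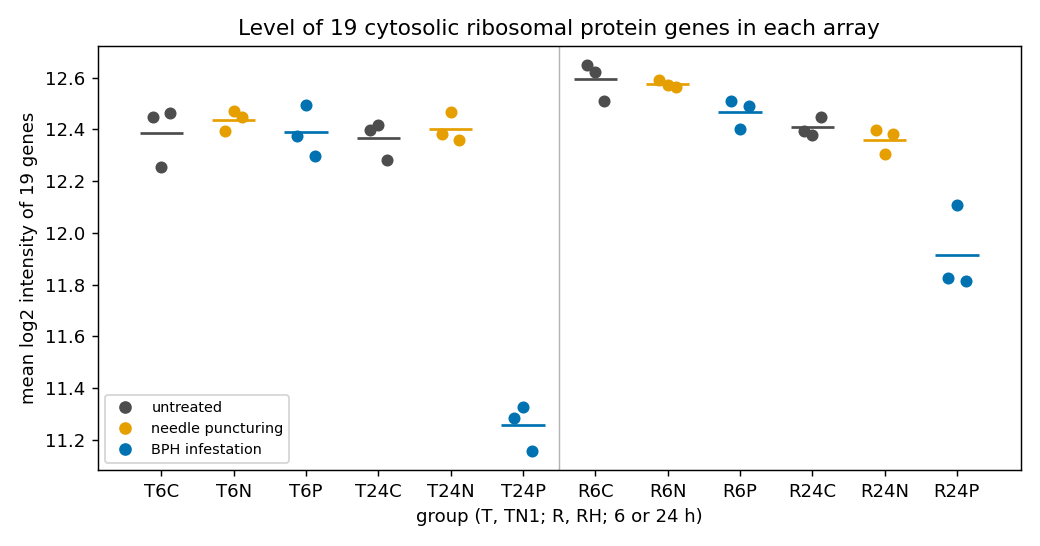
Mean log2 intensity of the 19 cytosolic ribosomal protein genes (y axis) in each of the 36 arrays, by group (x axis); points are arrays, placed from replicate 1 to 3, and lines are group means. The T24P arrays lie at 11.16 to 11.33 and the R24P arrays at 11.81 to 12.11, below the untreated arrays of 24 h.

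The first question was what 24 h of infestation did to these transcripts in the susceptible variety. In T24P against T24C, 22 of the 24 genes fell and none rose, where 27.4% of all genes fell and 28.6% rose. All 19 cytosolic genes fell, 10 of 10 of the small subunit and 9 of 9 of the large subunit, and 12 of the 19 fell at least 2-fold, a size that 6.8% of all genes reached. The median log2 fold change of the 19 was -1.10, with medians of -1.06 for the small and -1.13 for the large subunit, beside -0.01 over all genes. Among the 1374 genes of like or greater brightness, a comparison chosen after the values were seen, 51% fell, with a median of -0.24. The arrays of T24P lay below those of T24C without overlap for 19 of the 19 genes and for 23 of the 24, against 28.4% of all genes. From bulk shoots, fewer cells of a type and less RNA per cell cannot be told apart.

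Among the 9 large-subunit genes that met the rule, RPL5 fell most. RPL5 and RPL11 are the proteins that, in yeast and mammals, bind the 5S rRNA and enter the growing subunit with it. RPL5 had intensities of 4567, 4712 and 4444 in T24C and of 1674, 1636 and 1317 in T24P. Every infested array was thus below every untreated one, and the log2 fold change was -1.58 ± 0.11 (SE, n = 3 per group; limma, adjusted p = 8.83e-13). RPL11, its partner, fell by 1.48 on the log2 scale.

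RPL3, whose protein reaches into the peptidyl transferase centre in yeast, was at 5709.9, 5664 and 4977 in T24C. In T24P it was at 1809.9, 2065 and 1848. The groups lay far apart, with a log2 fold change of -1.51 ± 0.09 (SE, n = 3 per group; limma, adjusted p = 1.12e-13).

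The other large-subunit genes fell by less. RPL9 fell by 1.25, RPL7A-1 by 1.13 and RPL39C by 1.10 on the log2 scale. RPL30 fell by 0.95, RPL10A, which encodes the protein of the mobile L1 stalk, by 0.88 and RPL39B by 0.83. RPL39B and RPL39C are copies of a gene for a small protein that lines the tunnel through which the new chain leaves the ribosome.

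Among the 10 small-subunit genes, RPS26 and RPS4 fell most. The RPS26 protein lies at the exit of the mRNA channel. RPS26 had intensities of 6148, 6244 and 5827 in T24C and of 1865, 2283 and 2067 in T24P, with no overlap, and a log2 fold change of -1.56 ± 0.11 (SE, n = 3 per group; limma, adjusted p = 4.03e-12).

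RPS4 was at 6288, 6045 and 5231 in T24C and at 2081, 2219 and 1723 in T24P. The lowest untreated array stood above the highest infested one by more than the spread within either group, and the log2 fold change was -1.55 ± 0.11 (SE, n = 3 per group; limma, adjusted p = 3.02e-12). RPS3A, RPS7, RPS10, RPS15 and RPS20 fell by 1.27, 1.14, 1.07, 1.06 and 0.82 on the log2 scale. By their names, RPS15 and RPS20 encode proteins of the head of the small subunit.

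RPS27AA and RPS27AB encode ubiquitin joined to the ribosomal protein S27a, so that 1 transcript feeds both the ribosome and the ubiquitin pool. RPS27AA is the gene called RPS27α where it serves as a PCR reference. It was at 6445, 6523 and 6403 in T24C and at 3294, 3354 and 3436 in T24P. The replicates of each group lay close together and the groups far apart, with a log2 fold change of -0.94 ± 0.08 (SE, n = 3 per group; limma, adjusted p = 1.97e-10).

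Its copy RPS27AB was at 7131, 7991 and 7599 in T24C and at 4521, 5328 and 4829 in T24P. The groups did not overlap, and the log2 fold change was -0.63 ± 0.08 (SE, n = 3 per group; limma, adjusted p = 5.50e-08).

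RPS21 changed least among the 19. Its brightest probe set had intensities of 9973, 10042.5 and 9997 in T24C and of 8536, 8123 and 7875 in T24P. These arrays did not overlap either, but the log2 fold change was only -0.29 ± 0.07 (SE, n = 3 per group; limma, adjusted p = 0.00132). The other probe sets of RPS21 gave -0.64 and -0.87, so the small size belongs to the brightest probe set, and its adjusted p was 0.0753 when only T24P and T24C entered the fit.

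**Figure D2:**
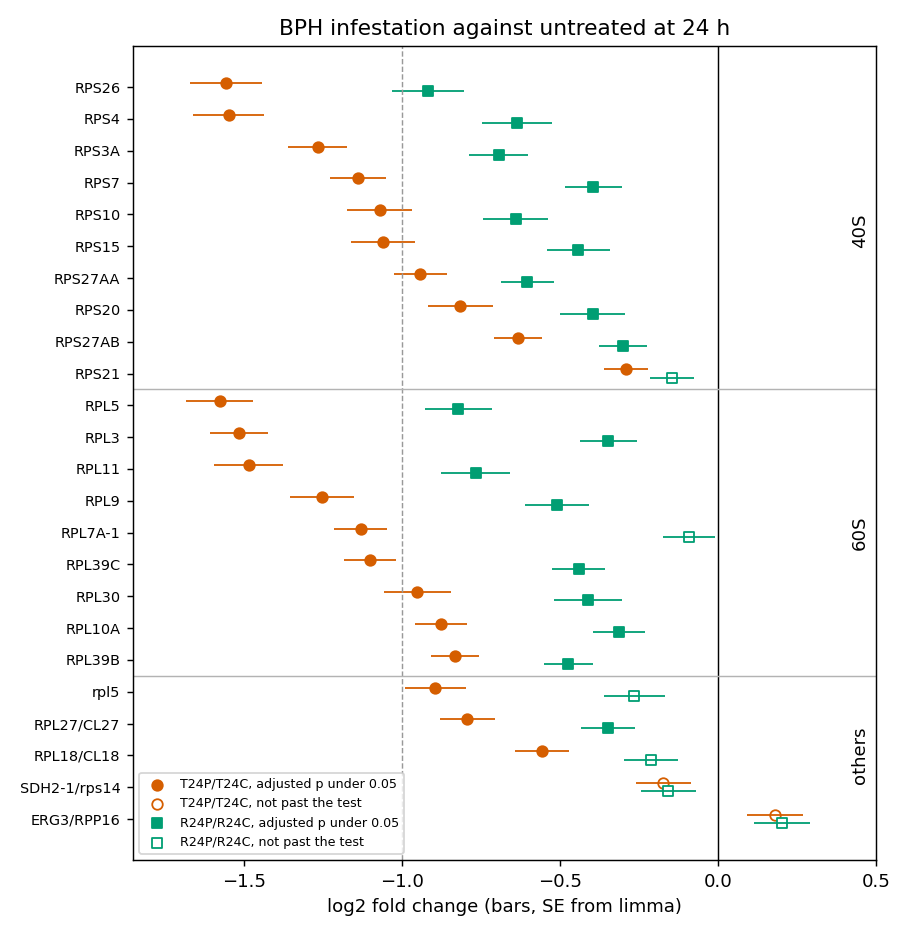
Log2 fold change of infested against untreated seedlings at 24 h (x axis) for the 24 genes (y axis), in TN1 (circles) and RH (squares), with SE bars from limma; filled symbols passed an adjusted p of 0.05 and the dashed line marks a 2-fold fall. In TN1 the 19 cytosolic genes range from -1.58 to -0.29 and in RH from -0.92 to -0.09.

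The 5 genes that matched by name alone behaved less alike. In T24P against T24C, rpl5 fell by 0.89, RPL27/CL27 by 0.79 and RPL18/CL18 by 0.56 on the log2 scale. SDH2-1/rps14, which encodes an iron-sulfur subunit of the mitochondrial respiratory chain, was at 1379, 1331 and 1476 in T24C and at 1267, 1199 and 1244 in T24P. Its infested arrays lay just below the untreated ones, and the log2 fold change of -0.17 did not pass (limma, adjusted p = 0.146, 95% interval -0.35 to 0.00). The other 3 probe sets of SDH2-1/rps14 gave -0.56, -0.27 and -0.46, all past the test.

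ERG3/RPP16 was the member with an upward change. It was at 2991, 2899 and 2891 in T24C and at 3583, 3059.5 and 3324 in T24P. The infested arrays stood just above the untreated ones, with a log2 fold change of 0.18 that did not pass (limma, adjusted p = 0.134). Against the pricked seedlings, in T24P against T24N, where 27.4% of all genes rose, it rose by 0.30 (limma, adjusted p = 0.00864). In R24P against R24N, where 14.9% rose, it rose by 0.31 (limma, adjusted p = 0.0181).

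Other probe sets of the same gene gave the same direction with other sizes. The 3 further probe sets of RPS3A gave -1.35, -1.72 and -1.56 in T24P against T24C, and that of RPS4 -1.42. Of the 3 further probe sets of RPS20, 1 with a mean intensity of 34.2 gave -0.42, and the brighter ones gave -0.85 and -0.99. The second probe set of RPL39B gave -0.86, and that of RPL10A, with a mean intensity of 41.1, gave -0.62. One further probe set of RPL27/CL27 gave -1.07, and the dimmer of its pair gave -0.06 and did not pass. Many ribosomal protein genes have near-identical copies that a probe set may also bind, so a value can hold more than 1 copy.

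Names close to the rule gave the same picture. RPS10-1, the other RPS10 gene, fell by 1.07 on the log2 scale in T24P against T24C and RPL7A-2, the other RPL7A gene, by 1.80. 60SP0, the gene of the P0 protein at the base of the ribosomal stalk, fell by 1.76. All 3 were looked at after the values of the 24 were known.

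The fall in T24P was about as large against the pricked as against the untreated seedlings. In T24P against T24N, 22 of the 24 genes fell, where 25.3% of all genes did, and the median over the 19 was -1.14. The calls in TN1 did not rest on 1 array: with each array left out in turn, 22 of the 24 fell and between 11 and 13 fell at least 2-fold. The share of all genes in those fits is not given. The methods' one-way analysis of variance, applied to T24P and T24C with Benjamini-Hochberg adjustment, called 19 of the 24 and 15.6% of all genes.

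The same comparison in the resistant variety asked whether RH responded alike. In R24P against R24C, 18 of the 24 genes and 17 of the 19 cytosolic ones fell, none rose and none fell 2-fold, where 9.5% of all genes fell, 0.469% at least 2-fold, and 17.2% rose. The median log2 fold change of the 19 was -0.44, beside 0.04 over all genes and -0.09 over the 1374 of like or greater brightness, of which 24.9% fell. The R24P arrays lay below the R24C arrays without overlap for 18 of the 19 genes, against 16.3% of all genes.

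The genes that fell most in RH were RPS26 and RPL5, which were also at the top in TN1. RPS26 was at 5636, 5745 and 6274 in R24C and at 2515, 3882 and 3089 in R24P. The groups stayed apart although the infested pots differed among themselves, and the log2 fold change was -0.92 ± 0.11 (SE, n = 3 per group; limma, adjusted p = 1.08e-06).

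RPL5 was at 4369, 4786 and 4977 in R24C and at 2577, 3148 and 2326 in R24P. Every infested array was lower, with a log2 fold change of -0.82 ± 0.11 (SE, n = 3 per group; limma, adjusted p = 2.11e-06).

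RPL11 fell by 0.77, RPS3A by 0.69 and RPS10 and RPS4 by 0.64 each on the log2 scale. RPS4 was at 5589, 5552 and 5464 in R24C and at 3335, 4325 and 3134 in R24P, with no overlap. RPL9, RPL39B, RPS15, RPL39C, RPL30, RPS20 and RPS7 fell by between 0.39 and 0.51. RPL10A fell by 0.31.

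RPS27AA, the reference gene, was at 6853, 6300.1 and 7015 in R24C and at 4511, 4951 and 3873 in R24P. The groups did not overlap and the log2 fold change was -0.60 ± 0.08 (SE, n = 3 per group; limma, adjusted p = 6.52e-06). RPS27AB was at 7583, 7672 and 8143 in R24C and at 6499, 6651 and 5883 in R24P, again apart, and fell by 0.30.

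Among the cytosolic genes, RPS21 and RPL7A-1 did not pass in RH by their brightest probe sets. RPS21 was at 9939, 10072 and 10595 in R24C and at 9190.1, 9531 and 8936 in R24P. Its infested arrays lay below the untreated ones, at a log2 fold change of -0.15 (limma, adjusted p = 0.168, 95% interval -0.29 to 0.00). Of its other probe sets, the brighter, with a mean intensity of 4384, gave -0.30 and passed (limma, adjusted p = 0.0151). The dimmer gave -0.17 and did not pass.

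RPL7A-1, a gene for the large-subunit protein L7a, was at 5876, 6545 and 6407 in R24C and at 6069, 6020.4 and 5571 in R24P. These arrays overlapped, and the log2 fold change was -0.09 (limma, adjusted p = 0.508, 95% interval -0.26 to 0.08). RPL7A-2 fell by 0.82 in the same comparison. Whether the pair differed in RH was not tested.

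Of the 5 genes matched by name alone, RPL27/CL27 fell by 0.35 in R24P against R24C. The log2 fold changes of rpl5, RPL18/CL18 and SDH2-1/rps14 were -0.27, -0.21 and -0.16 and did not pass. ERG3/RPP16 was at 3358, 3042 and 2709 in R24C and at 3558, 3479.97 and 3406 in R24P, all infested arrays above the untreated ones, at a log2 fold change of 0.20 that did not pass (limma, adjusted p = 0.124).

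In the level of the 19 genes the pots of R24P were less alike than those of the other groups. The mean log2 intensity of the 19 genes was 11.83, 12.11 and 11.81 in its 3 arrays, an SD of 0.17, while the SD within T24P was 0.09. The number of genes called in RH depended on how the spread was estimated: 10 of the 24 fell when only the arrays of R24P and R24C entered the fit, and 1 of the 24 with the methods' analysis of variance after Benjamini-Hochberg adjustment, where 2.13% of all genes were called and 20 of the 24 had an unadjusted p below 0.05. No share of all genes is given for the count at an unadjusted p below 0.05. Without the third R24P array, 13 of the 24 were called. The counts of 10 and 13 also have no share of all genes beside them, so a loss of calls over all genes cannot be set apart.

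The difference between the varieties was then tested itself, as the interaction of variety and infestation at 24 h. It passed for 17 of the 24 genes, and for each of them the fall was smaller in RH, where over all genes 11.3% had a change that was higher in RH than in TN1 and 7.89% one that was lower. Among the 1374 genes of like or greater brightness 24.5% had a higher change in RH, with a median difference of 0.17. Of the cytosolic genes 15 of 19 passed, 9 of 9 of the large and 6 of 10 of the small subunit, with a median difference of 0.62 over the 19. Whether the subunits differed in this count was not tested.

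RPL3 had the largest difference, 1.17 ± 0.13 on the log2 scale (SE; limma, adjusted p = 6.53e-07). It was at 5790.2, 5502 and 5792 in R24C and at 4178, 5155 and 4168 in R24P, a fall of 0.35, while in TN1 it fell by 1.51. The infested arrays of RH all lay above the infested arrays of TN1 given before.

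RPL7A-1 came next with 1.04 ± 0.12 (SE; limma, adjusted p = 9.36e-07). In TN1 it was at 4884, 4748.5 and 4214 in T24C and at 2237.5, 2150.05 and 1936 in T24P, a clear separation, while its RH arrays overlapped. RPS4 followed with 0.91, and RPL3 and RPL7A-1 were the members with a difference of at least 2-fold, as 2.49% of all genes had.

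RPS27AB had the smallest difference among those that passed, 0.33 ± 0.11 (SE; limma, adjusted p = 0.0446). RPS27AA had a difference of much the same size, 0.34, and did not pass (limma, adjusted p = 0.0691, 95% interval 0.10 to 0.58). RPS10, RPS20 and RPS21 did not pass either, at 0.43, 0.42 and 0.15. The other 2 probe sets of RPS21 did, at 0.47 and 0.56, whereas the dim second probe set of RPL10A gave -0.05 against 0.56 for the main one. The second probe set of RPL39B, with a mean intensity of 5507, gave 0.31 and did not pass (limma, adjusted p = 0.103), against 0.36 for its main one. A further probe set of RPS3A gave 0.49 and did not pass (limma, adjusted p = 0.135), while its others passed.

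In R24P against T24P, 21 of the 24 genes were higher in RH, where 27% of all genes were. The interaction passed for 12 of the 24 without the second R24P array, the one with the highest level of the 19 genes, and for 7 of the 24 when only the 4 groups of the test entered the fit. The share of all genes that passed in these fits is not given.

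**Figure D3:**
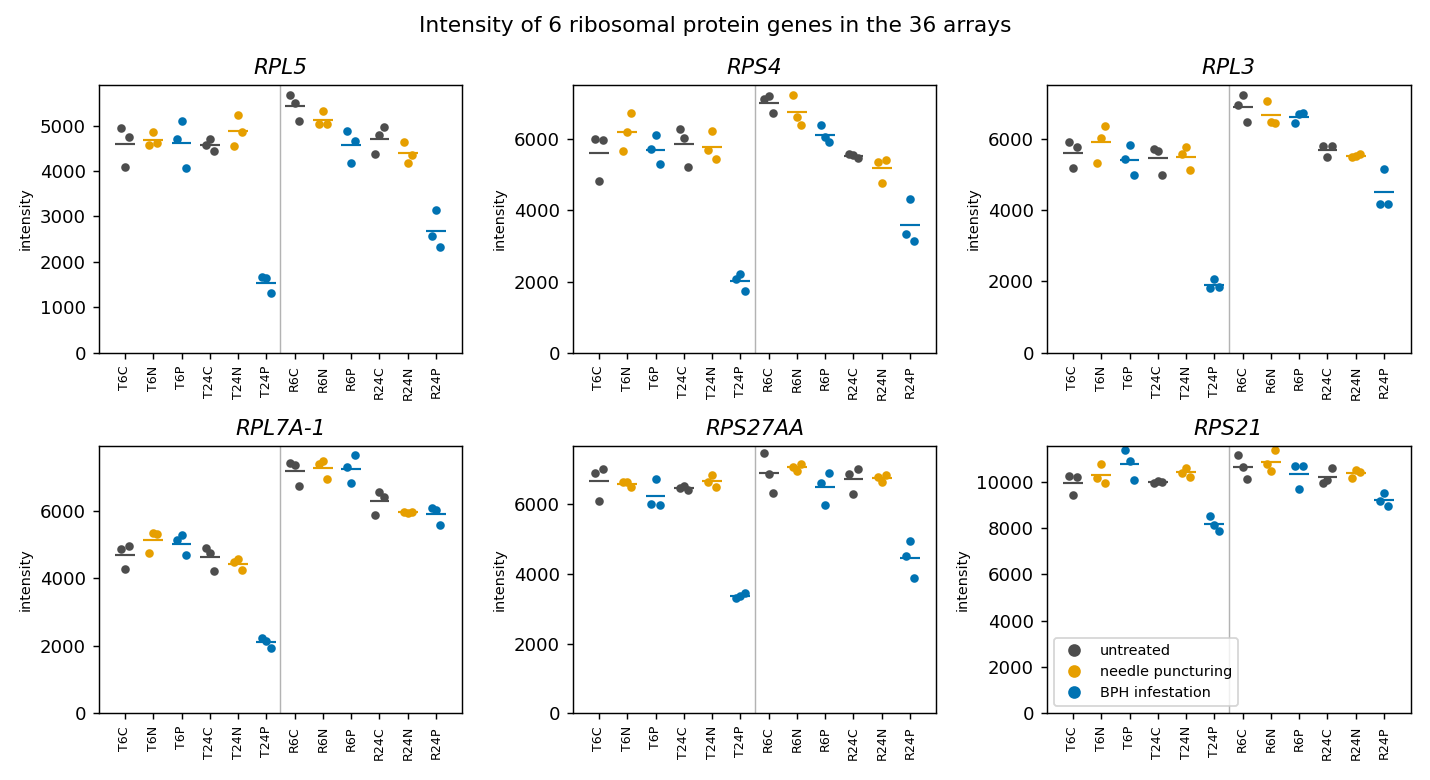
Intensity (y axes, from 0) of RPL5, RPS4, RPL3, RPL7A-1, RPS27AA and RPS21 in the 36 arrays by group (x axes), with points for arrays and lines for group means. RPL7A-1 lies higher in RH than in TN1 in each treatment, and its R24P arrays, at 5571 to 6069, overlap those of R24C.

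At 6 h of infestation few of these genes passed the test, as few of all genes did. In T6P against T6C 0 of the 24 genes passed, with a median of 0.01 over the 19, where 5.01% of all genes passed, and 1 had an unadjusted p below 0.05, or 2 with the methods' analysis of variance. In R6P against R6C 1 of the 24 fell, where 2.98% of all genes fell, and 4 had an unadjusted p below 0.05, or 6 with the methods' analysis of variance. The R6P arrays lay below the R6C arrays without overlap for 9 of the 24 genes and 7 of the 19, against 21% of all genes. For the counts at an unadjusted p below 0.05, no share of all genes is given. The gene that fell was RPS26, at 7061, 7275 and 6407 in R6C and 5429, 5144 and 4920 in R6P. Those arrays did not overlap, and the log2 fold change was -0.42 ± 0.11 (SE, n = 3 per group; limma, adjusted p = 0.0359).

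The remaining cytosolic genes in R6P against R6C lay between -0.31 and 0.01, 17 of the 18 below 0. Of all 17905 genes, 10315 lay below 0 in that comparison, with a median of -0.03. One further probe set of RPL27/CL27 fell by 0.55 there, while its main one did not pass. The call of RPS26 was lost when R6C replicate 1, 2 or 3 or R6P replicate 2 or 3 was left out.

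The responses of the 2 times were compared by an interaction within each variety. In TN1 the fall was larger at 24 h than at 6 h for 22 of the 24 genes, where 21.4% of all genes had a lower change at 24 h, with a median difference of -1.14 over the 19. In RH it was larger for 6 of the 24, where 2.11% of all genes did: RPL5, RPL11, RPS27AA, RPS3A, RPS10 and RPL39B, with differences of -0.57 to -0.35. RPS26 was not among them.

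Pricking with a needle moved none of the 24 genes past the test. The share of all genes that passed was 3.43% in T6N against T6C, 0.726% in R6N against R6C, 0.223% in T24N against T24C and 0.0447% in R24N against R24C. Over these 4 comparisons the log2 fold changes of the 19 cytosolic genes lay between -0.15 and 0.20. At an unadjusted p below 0.05, limma gave 4 of the 24 in T6N against T6C and 2 in R6N against R6C. It gave 0 at 24 h in either variety. The methods' analysis of variance gave 5 in TN1 and 2 in RH at 6 h, and 1 in TN1 and 0 in RH at 24 h. The share of all genes at that unadjusted threshold is not given, so these counts have no background.

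**Figure D4:**
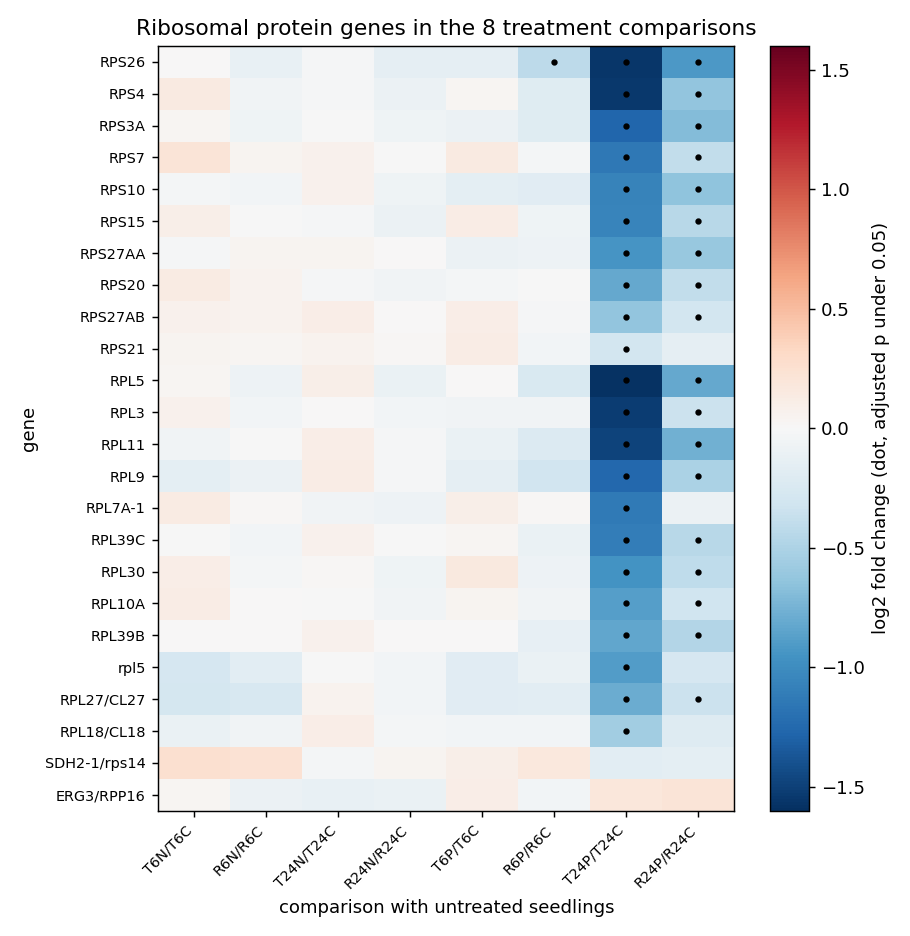
Log2 fold change (colour) of the 24 genes (y axis) in the 8 comparisons of needle puncturing (N) or BPH infestation (P) with untreated seedlings (x axis), with a dot where the adjusted p was below 0.05. The 2 infestation columns of 24 h hold all dots but 1, that of RPS26 at -0.42 in R6P against R6C.

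Averaged over both times without infestation, the varieties differed little in these genes. Over the untreated and pricked groups of both times, 4 of the 24 differed between RH and TN1, where 33.7% of all genes did, and none did so 2-fold. RPL7A-1 was the exception in size, higher in RH by 0.50 ± 0.04 on the log2 scale (SE; limma, adjusted p = 1.85e-11). It was chosen for a closer look after its values were seen. Its difference was 0.61 in R6C against T6C, 0.44 in R24C against T24C, 0.50 and 0.43 among the pricked seedlings and 0.53 in R6P against T6P, so the resistant variety was higher in each of these 5 comparisons.

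RPL3 was higher in RH by 0.14 and ERG3/RPP16 by 0.18, and SDH2-1/rps14 was lower by 0.13. RPL7A-2 differed by 0.03 and did not pass. Of the 4 calls, 2 were left when T24C replicate 3 was left out. By time, the median over the 19 was 0.18 in R6C against T6C and 0.13 in R6N against T6N. In both, 0 of the 19 lay below 0, beside 8210 and 9029 of all 17905 genes. Over all genes these medians were 0.02 and -0.002. In R6C against T6C 3 of the 19 passed as higher in RH, where 1375 of all 17905 genes did. In R6N against T6N 1 of the 19 did, where 1045 of all genes did. At 24 h the median over the 19 was 0.03 in R24C against T24C and -0.05 in R24N against T24N. Over all genes these were 0.003 and -0.01. Whether the variety difference changed with time was not tested.

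Between 24 and 6 h without infestation, 9 of the 24 genes were lower at 24 h, where 44% of all genes were, and 3 were higher, where 20.5% of all genes were. The lower ones were 8 cytosolic genes and ERG3/RPP16, with RPS20 at -0.33 the farthest. The higher ones were RPL27/CL27 at 0.24, rpl5 at 0.22 and RPL18/CL18 at 0.16, all among the 5 genes matched by name alone. The share of lower genes was below that over all genes, and no change reached 2-fold. By variety, the median over the 19 was -0.19 in R24C against R6C and -0.22 in R24N against R6N. Over all genes these medians were -0.09 and -0.11. In TN1 the median over the 19 was -0.01 in T24C against T6C and 0.01 in T24N against T6N. Over all genes these were -0.07 and -0.10. Whether the varieties differed in the effect of time was not tested.

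Genes that work beside the ribosome moved by varying amounts in T24P against T24C, where 27.4% of all genes fell. RACK1A and RACK1B encode the scaffold protein bound to the head of the small subunit. RACK1A was at 6475, 6586 and 5640 in T24C and at 1997, 2169 and 1786 in T24P, well apart, and fell by 1.65 on the log2 scale, as RACK1B did by 1.52. Both were in a list of assembly and nucleolar factors that held 4 genes. The other 2 fell as well, RRP46, a subunit of the RNA-processing exosome, by 0.86 and NAP1 by 0.50. The NAP1 name belongs to a histone chaperone, so the list is not one of ribosome assembly alone. In R24P against R24C, where 9.5% of all genes fell, 3 of the 4 fell, RACK1A by 0.90.

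Of 8 initiation factors 4 fell in TN1, where 27.4% of all genes did, with a median of -0.20. Among them were eIF3k, by 0.86, and eIF-4E-1, of the cap-binding protein, by 0.57. In RH 1 of 8 fell, where 9.5% of all genes did. The 3 eIF-4A genes, of the RNA helicase, lay between -0.13 and -0.09 in TN1 and did not pass. EF-1-beta fell by 0.63 and EF-1-alpha, which brings aminoacyl-tRNA to the ribosome, by 0.38 in TN1. The 1 measured gene of the TOR kinase pathway, LST8, lay at -0.05 in TN1 and 0.14 in RH and did not pass.

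The proteasome takes proteins apart, at the other end of their life. Of its 19 listed subunits 14 fell in T24P against T24C, where 27.4% of all genes did, with a median of -0.45. In R24P against R24C 5 of 19 fell, where 9.5% of all genes did, with a median of -0.19. The median of the 19 ribosomal protein genes was -1.10 in the first and -0.44 in the second. PAF1 and RPN1A, at -0.72 and -0.71 in TN1, were the proteasome subunits that fell most.

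Cell division genes also fell in TN1 at 24 h. Of 17 genes of cyclins, the MCM helicase and their like, 14 fell in T24P against T24C, where 27.4% of all genes did, with a median of -1.23, whereas 0 of 17 passed in R24P against R24C (limma; 1 of 17 at an unadjusted p below 0.05), with a median of -0.15. Their interaction of variety and infestation passed for 6 of 17, all with the smaller fall in RH, where 11.3% of all genes had a higher change in RH. At 6 h, in T6P against T6C, the median of the 17 was 0.52 and 0 passed (limma; 9 were higher at an unadjusted p below 0.05), while the median of the 19 ribosomal protein genes was 0.01. Among 7 markers of shoot meristem and dividing cells, 5 fell in TN1 and 0 in RH, where 1 had an unadjusted p below 0.05. Those 5 are cyclin and PCNA genes that the cell division list also holds, and the other 2, OSH1 and OSH71, did not pass. The summed intensity of the 7 was 2014 to 4407 in T24C, 688 to 1376 in T24P, 3272 to 4554 in R24C and 2312 to 3793 in R24P. OSH1 and OSH71, genes of the meristem, were dim throughout, at 8.12 to 27.2 in these 12 arrays. Counts at an unadjusted p below 0.05 have no share of all genes beside them here. The part of dividing cells in the fall of the ribosomal protein genes was not tested.

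Markers of green tissue did not fall. Of 4 such genes none fell and 1, RBCS1 at an intensity of 13.2 in T24P, rose by 0.38 in TN1, and their summed intensity was 47180 to 52842 in T24C and 52684 to 53751 in T24P. Of 3 genes of senescence and chlorophyll loss, SGR and NYC1 rose in TN1 by 1.71 and 0.65 and NOL fell by 0.61. In R24P against R24C SGR rose by 0.66 and NOL fell by 0.45. At 6 h, in T6P against T6C, SGR rose by 0.75 and NOL fell by 0.36. NYC1 did not pass in these comparisons, at 0.25 and -0.17. The root marker Lsi1 rose by 0.46 in TN1, at summed root marker intensities of 149 to 178 in T24C and 189 to 241 in T24P. The part of any of these in the results was not tested.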

How the data were processed

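Shoot RNA of 36 samples was hybridised to Affymetrix Rice Genome Arrays. The deposited values are probe-set intensities on a linear scale, and the submitters' processing notes name RMA and affy without versions. The intensities were used as deposited, on the log2 scale. Genes were named from the platform annotation: 22436 of 57194 probe sets had 1 gene, 95 several and 34663 none. R 4.3.3 and limma 3.58.1 fitted 1 mean per group over all 12 groups (24 residual degrees of freedom, with no block), with Benjamini-Hochberg adjustment over all probe sets and a threshold of 0.05. The script was tested on simulated data. Shares over all genes use the brightest probe set of each of 17905 genes.

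The members and gene lists were chosen with earlier results of these data known. Values of single arrays are given in the groups named with them, not in every group. They cover the 4 members with the largest falls in T24P/T24C, the 3 with the change nearest 0 or upward, and RPS27AA. They also cover the members with the largest and smallest interaction called at 24 h. Of other lists, up to 3 genes with the largest changes were taken. Others named were chosen after their values were seen. Genes with fitting names but no probe set of their own were not analysed here. Alternatives were the methods' one-way analysis of variance, other scalings, variance and array weights, filters, probe-set choices, thresholds, a replicate block and leaving out each array. A pot is the replicate, so p-values measure the spread between pots. Replicate numbers were checked for pairing: over all probe sets, deviations of same-numbered untreated and infested arrays correlated between -0.17 and 0.17. This check cannot exclude a replicate effect in these genes alone, and the main fit had no block. Python 3 drew the figures.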

Additional observations from a re-analysis of the deposited data

Results flagged for a closer look

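In 17 of the 24 genes the change with infestation at 24 h differed between RH and TN1 by the interaction term (limma, adjusted p below 0.05), and each had the smaller fall in RH. In the large subunit the difference on the log2 scale, RH minus TN1, was 1.17 for RPL3 and 1.04 for RPL7A-1. It was 0.75 for RPL5, 0.74 for RPL9, 0.72 for RPL11 and 0.66 for RPL39C. RPL10A had 0.56, RPL30 0.54 and RPL39B 0.36. In the small subunit it was 0.91 for RPS4, 0.74 for RPS7 and 0.64 for RPS26. RPS15 had 0.62, RPS3A 0.57 and RPS27AB 0.33. Among the genes matched by name alone, rpl5 had 0.63 and RPL27/CL27 0.44.

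The change with infestation also differed between 24 and 6 h by the interaction term, in 22 of the 24 genes in TN1 and in 6 of the 24 in RH, each time with the larger fall at 24 h.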

How the results depend on the processing

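The fall in TN1 at 24 h held under the alternatives, with 22 of 24 genes in each fit that left out an array. Counts that moved by over 1.5 times are these, and no share of all genes is given beside the counts of this section. The methods' analysis of variance gave 1 gene lower in R24P and 0 changed at 6 h or by puncturing. Fits of only the groups compared gave 10 genes lower in R24P, 7 with an interaction, 0 at 6 h or by puncturing and 7 differing between RH and TN1. Genes changed at 6 h or by puncturing numbered 5 with array weights, 3 with trended robust variances, 3 with probe sets of mean log2 intensity of 6 or more and 2 of 21 without probe sets that may bind several transcripts. A 2-fold minimum left 12 genes in T24P, 0 in R24P, 2 with an interaction, 0 at 6 h or by puncturing, 0 between varieties and 0 between times. An adjusted p below 0.01 left 0 at 6 h or by puncturing and 2 between varieties. The median in T24P was -1.14 with array weights. Other sets of members were chosen after seeing the data: with only the 19 cytosolic genes, 2 differed between varieties and the T24P median was -1.10, and adding RPS10-1, RPL7A-2 and 60SP0 moved no count by over 1.5 times.

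Leaving out each array in turn gave 13 to 18 genes lower in R24P, 12 to 19 with an interaction, 0 to 1 at 6 h or by puncturing, 2 to 4 between varieties and 10 to 13 between times, with medians of -1.09 to -0.98 in T24P and -0.51 to -0.36 in R24P. With the replicate number as a block the counts stayed at 22, 18, 17, 1, 4 and 12, and no call of a single gene in T24P against T24C changed. No median or fold change in T24P against T24C reversed. In single genes, the analysis of variance lost RPL30, RPL18/CL18 and rpl5 in T24P, quantile normalization called ERG3/RPP16 at 0.27, and other probe sets called SDH2-1/rps14 at -0.36 or -0.56. The cause of these differences was not tested. The number of arrays, 3 per group, limits the precision.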
